A study of Rattus norvegicus with 24 samples.

Results

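A set of 7 genes that are widely used to mark macrophages in general, including those recruited into tissue, was followed by name through bulk RNA sequencing of rat dorsal skin: Lyz2, Cd68, Mpeg1, Itgam, Msr1, Marco and Aif1. They are 7 of the 23095 genes in the table, and each name occurs there once. The 24 libraries fall into 4 groups of 6, all from Sprague-Dawley rats and all sampled at day 7: T-gel, a biodegradable polymer gel, injected intradermally (ID gel), saline injected intradermally (ID saline), T-gel injected subcutaneously (SC gel) and saline injected subcutaneously (SC saline). The labels of the gel libraries name the injection site only, and the gel is named in the study's design text. The age and sex of the animals, and whether replicates came from separate animals, are not stated by the labels, so p-values measure the spread between these samples only.

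Macrophages are phagocytes that either live in the skin or arise there from blood monocytes after injury or implantation of a foreign material. They take up particles and damaged lipoproteins through scavenger receptors and complement receptors, and degrade them in lysosomes. Lyz2 encodes lysozyme, which cuts bacterial cell walls, Cd68 a glycoprotein of late endosomes and lysosomes, and Mpeg1 the pore-forming protein perforin-2. Itgam encodes CD11b, the alpha chain of complement receptor 3. Msr1 and Marco encode class A scavenger receptors, and Aif1 encodes IBA1, a calcium-binding protein that bundles actin. Itgam, Lyz2 and Aif1 are not restricted to macrophages: neutrophils and monocytes also express Itgam and Lyz2.

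Library totals ran from 14024353 to 18821730 counts. Levels within a gene are CPM, counts relative to the scaled library total (TMM factors), and levels set against other genes are FPKM, which also divides by gene length. In bulk tissue, fewer cells of a type and less RNA per cell cannot be told apart. A list of 28 skeletal muscle genes, 26 of them matched, held 0.00679 to 2.27% of the counts in ID gel, against 7.12 to 9.06% in ID saline, and 0.0125 to 0.351% in SC gel, against 4.48 to 9.75% in SC saline. Of these 26 genes, 25 fell at each site. With the muscle genes left out of the table before scaling, the members' log2 fold changes were 2.76 to 5.62 in ID skin and 0.48 to 2.68 in SC skin, against 2.77 to 5.62 and 0.46 to 2.66 with them. Leaving them out changes the scaling only, so it does not address the unequal muscle content of the samples. Keratinocyte genes, which define the tissue, were present in every library, but at unequal summed levels. These were 1523 to 5570 CPM in ID gel, against 5764 to 10973 in ID saline. In SC gel they were 13789 to 21050 CPM, against 5534 to 7488 in SC saline. The gene coordinates are those in the table. Its build is uncertain, since the submitters' notes name Rnor_6.0 while 47 genes lie on sequences with JACYVU or MU150 names.

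How dermal gel changed the skin was addressed by setting ID gel against ID saline. Of the 7 genes, 6 passed the filter on low counts, and all 6 rose, by 6.80-fold for Aif1 to 49.2-fold for Mpeg1 (edgeR's quasi-likelihood test, adjusted p under 0.05). In the same comparison 36.6% of the 14763 tested genes rose and 37% fell. The ID gel and ID saline libraries did not overlap for any of these 6 genes, which was true of 29.1% of tested genes in this direction. The median log2 fold change of the 6 genes was 4.79, against -0.01 over all tested genes.

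Lyz2 (ENSRNOG00000005825, chromosome 7, 52906811 to 52912106) stood at 6205 CPM in the lowest, 7115 in the median and 10734 in the highest ID gel library, against 232, 340 and 434 CPM in ID saline. It rose by 4.59 ± 0.33 log2 units (SE from the fit, adjusted p = 2.79e-11). No other member had so high a level per length in either group: its median FPKM ranked 8 among the tested genes in ID gel and 269 in ID saline. Its paralog Lyc2 lies beside it on chromosome 7, and how reads shared between the pair were counted is not given, so the Lyz2 count is uncertain to that extent. Lyc2 itself held 6.95 to 15.7 CPM in ID gel, against 0.325 to 0.499 CPM in ID saline, a small amount beside Lyz2 in every library.

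Cd68 (ENSRNOG00000037563, chromosome 10, 54381815 to 54383697) had 978, 1160 and 1577 CPM in its lowest, median and highest ID gel library, against 23.4, 35.4 and 61.4 CPM in ID saline. The lowest gel library thus lay far above the highest saline library, and the rise was 5.01 ± 0.41 log2 units (32.3-fold, adjusted p = 1.67e-10). Mpeg1 (ENSRNOG00000063244, chromosome 1, 209452133 to 209458855) had 2391, 2714 and 3077 CPM in ID gel, against 39.2, 51.2 and 77.6 CPM in ID saline. Its gel libraries lay closest together of the 6 genes, with a coefficient of variation of 9.59%, and its rise of 5.62 ± 0.45 log2 units (adjusted p = 1.04e-10) ranked 80 among all tested genes.

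Among the surface receptors, Itgam (ENSRNOG00000019728, chromosome 1, 182659000 to 182709503) had 434, 619 and 744 CPM in the lowest, median and highest ID gel library, against 21.1, 30.7 and 50.5 CPM in ID saline. It rose by 4.16 ± 0.33 log2 units (17.9-fold, adjusted p = 1.23e-10). Msr1 (ENSRNOG00000012779, chromosome 16, 52717732 to 52799676), a receptor for modified lipoproteins, had 190, 315 and 478 CPM in ID gel, against 4.68, 10.2 and 16.8 CPM in ID saline, and rose 31.9-fold (5.00 ± 0.36 log2 units, adjusted p = 2.92e-11). Msr1 had the widest spread of the 6 genes in ID gel, with a coefficient of variation of 36.0%. Another annotated gene lies within Msr1 on the same strand, with 25 counts over all libraries against 34963 for Msr1.

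Aif1 (ENSRNOG00000000853, chromosome 20, 3646777 to 3652668) had 107, 144 and 161 CPM in the lowest, median and highest ID gel library, against 13.2, 18.5 and 29.9 CPM in ID saline. Its rise, 2.77 ± 0.26 log2 units (6.80-fold, adjusted p = 2.02e-09), had a 95% interval of 2.22 to 3.31. The interval of the next lowest rise, that of Itgam, was 3.47 to 4.86.

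Marco (ENSRNOG00000049303, chromosome 13, 31616278 to 31648521), the other class A scavenger receptor, had 5 counts in all, 1 each in 5 of the 24 libraries. There was 1 count over the 6 ID gel libraries and 0 in ID saline, 2 in SC gel and 2 in SC saline. It did not pass the filter of the fit reported here, so that fit gave no test of it. A floor of 3 counts over a group corresponds to 0.0283 to 0.0341 CPM, and Marco was at or under it in all 4 groups, so no fold is given. Floors cover counting error only.

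**Figure D1:**
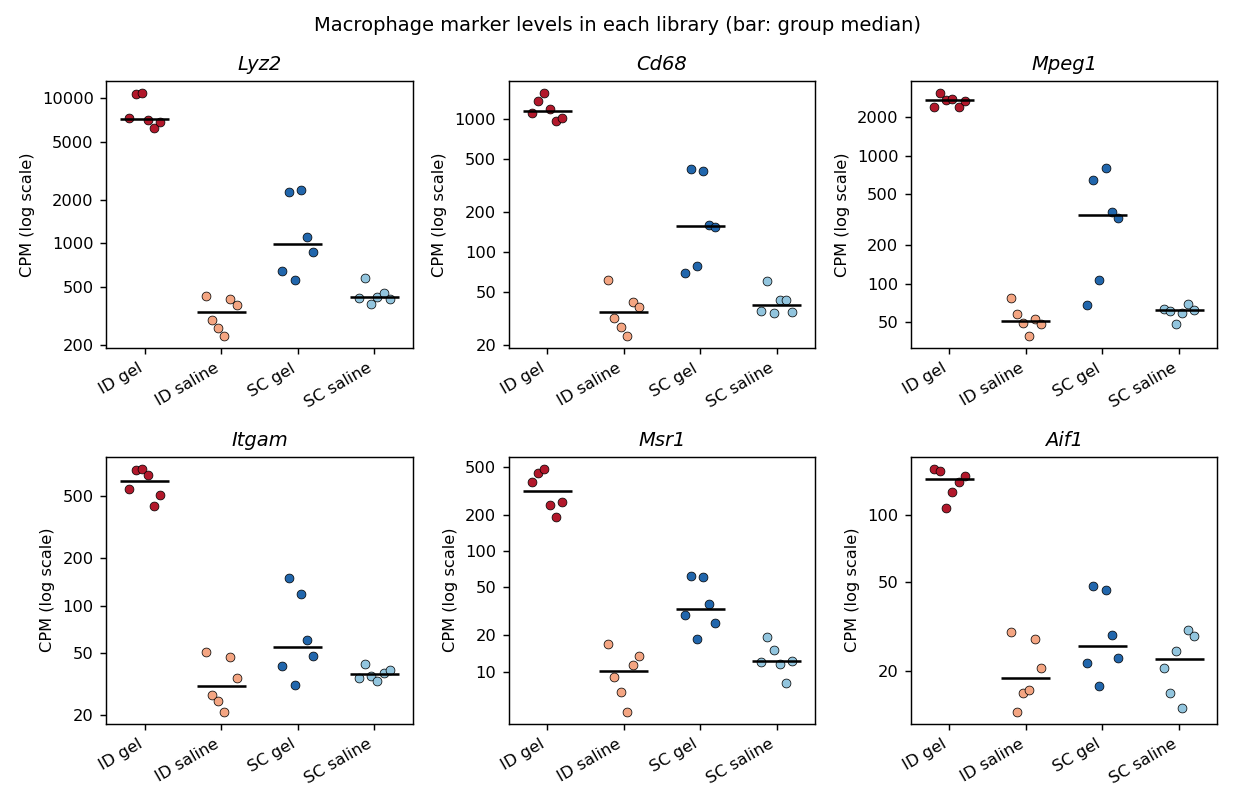
Level of the 6 tested macrophage markers in each of the 24 libraries, as CPM on a log scale, with 1 point per library and a bar at the group median (6 libraries per group). ID gel libraries lie above every other library for all 6 genes, and SC gel libraries are spread widely, for Mpeg1 between 68.2 and 801 CPM.

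The same question for gel placed under the skin was addressed by setting SC gel against SC saline. Of the 6 tested genes, 5 rose, by 2.02-fold for Itgam to 6.33-fold for Mpeg1, and Aif1 was not called. Over all tested genes 24.7% rose and 26.1% fell. Only for Cd68 did the SC gel libraries not overlap SC saline, 1 of 6 genes, against 11% of tested genes that were higher in every SC gel library. The median log2 fold change of the 6 genes was 1.55, against -0.00 over all tested genes.

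Cd68 had 69.4, 158 and 424 CPM in the lowest, median and highest SC gel library, against 34.8, 39.8 and 60.4 CPM in SC saline, and rose by 2.35 ± 0.36 log2 units (5.11-fold, adjusted p = 1.27e-05). Mpeg1 had 68.2, 346 and 801 CPM in SC gel, against 48.2, 61.9 and 70.1 CPM in SC saline, and rose by 2.66 ± 0.39 log2 units (adjusted p = 6.24e-06). Its lowest SC gel library lay within the saline range, and the others lay above it. Lyz2 had 558, 991 and 2337 CPM in SC gel, against 387, 427 and 575 CPM in SC saline, and rose by 1.54 ± 0.29 log2 units (2.90-fold, adjusted p = 0.00015). Here too 1 SC gel library lay within the saline range.

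Msr1 had 18.6, 33.1 and 62.4 CPM in the lowest, median and highest SC gel library, against 8.05, 12.2 and 19.5 CPM in SC saline, and rose by 1.56 ± 0.32 log2 units (2.96-fold, adjusted p = 0.000309). Itgam had 31.1, 54.1 and 149 CPM in SC gel, against 33.0, 36.5 and 42.3 CPM in SC saline, and rose by 1.01 ± 0.30 log2 units (adjusted p = 0.00681). Its lowest SC gel library was below every saline library. Aif1 had 17.1, 25.8 and 48.0 CPM in SC gel, against 13.7, 22.6 and 30.6 CPM in SC saline. The Aif1 difference was 0.46 ± 0.25 log2 units with a 95% interval of -0.06 to 0.98 (adjusted p = 0.13). Aif1 passed the threshold with limma on log2(FPKM + 1), at 0.60 log2 units (adjusted p = 0.0253), and in edgeR without SC gel replicate 3, also at 0.60 (adjusted p = 0.0452).

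The 6 SC gel libraries were spread widely for these genes. Libraries 2 and 4 were the highest pair for 6 of 6 genes, library 3 was among the lowest pair for 6 of 6 and library 1 for 5 of 6. Relative to the SC saline median, library 2 stood at 2.12-fold (Aif1) to 10.7-fold (Cd68) and library 4 at 2.03-fold (Aif1) to 12.9-fold (Mpeg1), whereas library 1 stood at 0.954-fold (Aif1) to 2.41-fold (Msr1) and library 3 at 0.757-fold (Aif1) to 1.98-fold (Cd68). All 6 genes lay above every SC saline library in libraries 2 and 4, and 5 of 6, all but Aif1, in libraries 5 and 6. In library 1 only Cd68, Lyz2 and Msr1 did so, and in library 3 only Cd68 and Mpeg1. For single libraries, such ranks and counts were not taken over all tested genes, so nothing particular to the members is read from them.

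The muscle list also differed between these libraries. It held 0.351% of the counts in SC gel library 1 and 0.0957% in library 3, against 0.0125 to 0.0161% in the other 4. Its part in the difference between these libraries was not tested. With each SC gel library left out in turn, and likewise each of the other 18 libraries, the same 5 genes stayed called, and the lowest value was 0.72 log2 units for Itgam. In ID gel the spread was narrower. Library 5, which held the most muscle counts there (2.27%), was the lowest for 5 of 6 genes, and its 6 values still lay at 7.55-fold (Aif1) to 46.7-fold (Mpeg1) over the ID saline median. For how many of all tested genes library 5 was lowest was not counted. ID gel replicates 1 to 3 parted without overlap from replicates 4 to 6 for Lyz2, with means of 9540 and 6655 CPM, and for Msr1, with means of 432 and 228 CPM. The other tested members overlapped. How many of all tested genes part in this way was not counted, so nothing particular to Lyz2 and Msr1 is read from it. With either of these sets of replicates alone all 6 genes remained called in ID skin.

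**Figure D2:**
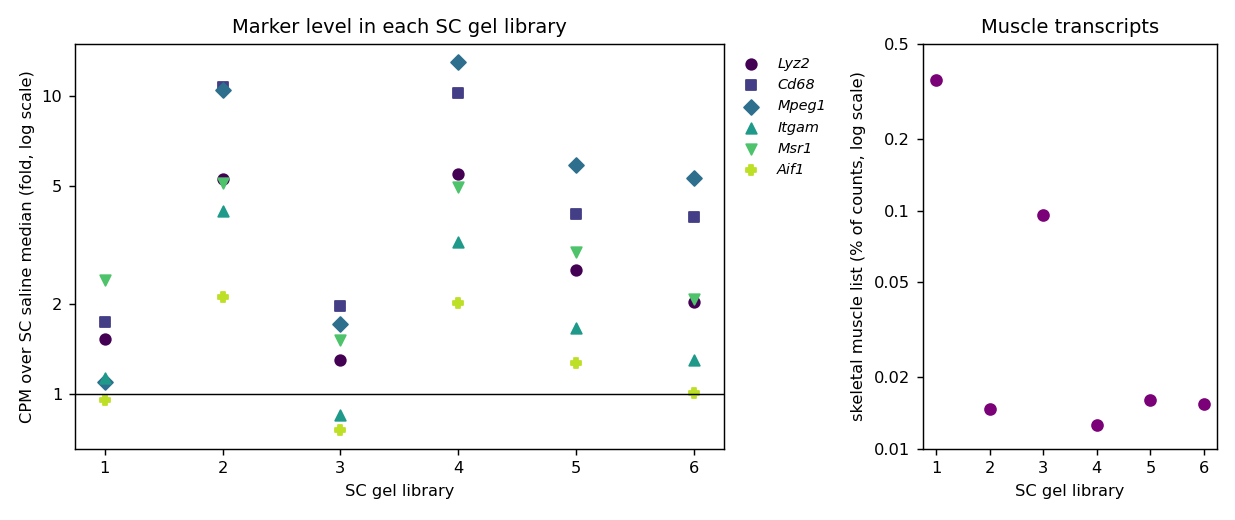
Left, level of 6 macrophage markers in each SC gel library as a fold of the SC saline median (CPM, log scale, line at 1), and right, the share of counts held by the skeletal muscle list in the same 6 libraries (%, log scale). Libraries 2 and 4 stand highest for all 6 genes, and libraries 1 and 3, which stand low, hold 0.351% and 0.0957% of counts in muscle genes.

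The study's design sets the gel response at one site against that at the other. As a test of the difference itself, the ID effect minus the SC effect was positive for 6 of 6 tested genes, where 32.8% of all tested genes were called higher and the all-gene median was 0.12. Msr1 differed by 3.43 ± 0.46 log2 units (adjusted p = 1.42e-06), Itgam by 3.15 ± 0.43 (adjusted p = 1.81e-06) and Lyz2 by 3.05 ± 0.42 (adjusted p = 1.93e-06). Mpeg1 and Cd68, the genes with the largest rises in SC skin, differed by 2.96 ± 0.53 and 2.66 ± 0.50 log2 units. Aif1 differed by 2.31 ± 0.36 (adjusted p = 9.06e-06). The 95% intervals of these 6 differences overlap.

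Set directly against each other, ID gel was higher than SC gel for 6 of 6 genes, against 40.1% of tested genes, and the 6 ID gel libraries lay above all 6 SC gel libraries for each of them, against 27.4% of tested genes. The log2 fold changes ran from 2.19 ± 0.26 for Aif1 to 3.09 ± 0.33 for Msr1. Its libraries are those of the gel groups above. The keratinocyte sums of the gel groups do not overlap either, and their part in this difference was not tested. Between ID saline and SC saline, 0 of 6 genes were called, where 3.22% of all tested genes were. No member had an unadjusted p under 0.05, in edgeR or in DESeq2. The values ran from -0.41 ± 0.29 log2 units for Lyz2 to -0.12 ± 0.25 for Aif1, and the widest 95% interval, that of Mpeg1, was -0.93 to 0.60. Within saline, ID library 1 was the highest of its group for 6 of 6 genes. For how many of all tested genes it was highest was not counted.

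**Figure D3:**
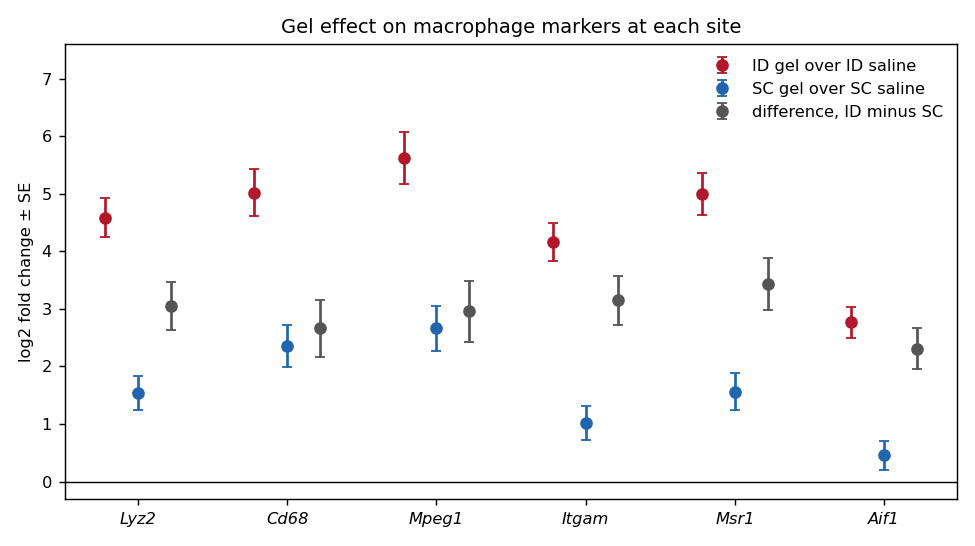
Fitted log2 fold change ± SE of 6 macrophage markers for ID gel over ID saline, SC gel over SC saline and the difference of these effects, ID minus SC (6 libraries per group). Every gene has a larger value in ID than in SC skin, and Aif1 has the lowest value at both sites, 2.77 and 0.46.

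Per length, the order of the members was Lyz2, Cd68, Mpeg1, Msr1, Itgam, Aif1, Marco in ID gel, by median FPKM of 3419, 823, 368, 152, 129, 65.6 and 0. Only Msr1 and Itgam overlapped among neighbours in that order, with Msr1 higher in 4 of 6 libraries. In ID saline the order was Lyz2 (174 FPKM), Cd68 (27.3), Aif1 (9.31), Mpeg1 (7.82), Itgam (6.99), Msr1 (5.10) and Marco (0). There Aif1, Mpeg1, Itgam and Msr1 overlapped their neighbours, so Aif1 had place 3 by median in ID saline and place 6 in ID gel. SC saline had the same order as ID saline, and in SC gel the order was Lyz2, Cd68, Mpeg1, Msr1, Aif1, Itgam, Marco, with overlap between all neighbours but Itgam and Marco. Among the tested genes, Cd68 ranked 43 by median FPKM in ID gel and 2214 in ID saline, and Mpeg1 126 and 6518. In SC gel Cd68 ranked 370 and Mpeg1 957, against 1814 and 5721 in SC saline.

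Because the genes rose by unequal amounts, their proportions differed between groups. Over the 15 pairs among the 6 tested genes, the ratio of FPKM within a library did not overlap between ID gel and ID saline for 8 pairs, between SC gel and SC saline for 3, between ID gel and SC gel for 1 and between ID saline and SC saline for 0. These ratios are a description without a test. The pairs share genes, and pairs of other genes were not counted for comparison. All 5 pairs with Aif1 were among the 8 in ID skin: the median ratio to Aif1 was 52.4 in ID gel and 16.4 in ID saline for Lyz2, 12.3 and 2.81 for Cd68, and 5.78 and 0.768 for Mpeg1. The other 3 were Cd68 to Itgam, with a median of 6.79 in ID gel and 3.78 in ID saline, Mpeg1 to Itgam (2.84 and 1.13) and Mpeg1 to Lyz2 (0.106 and 0.0515). In SC skin Cd68 to Itgam (9.25 in SC gel, 3.74 in SC saline) and Cd68 to Lyz2 (0.239 and 0.140) were higher, and Itgam to Lyz2 (0.0245 and 0.0365) was lower. Aif1 made up 1.33% of the summed FPKM of the 7 genes in the median ID gel library and 4.50% in ID saline, and Lyz2 69.7% and 75.1%.

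**Figure D4:**
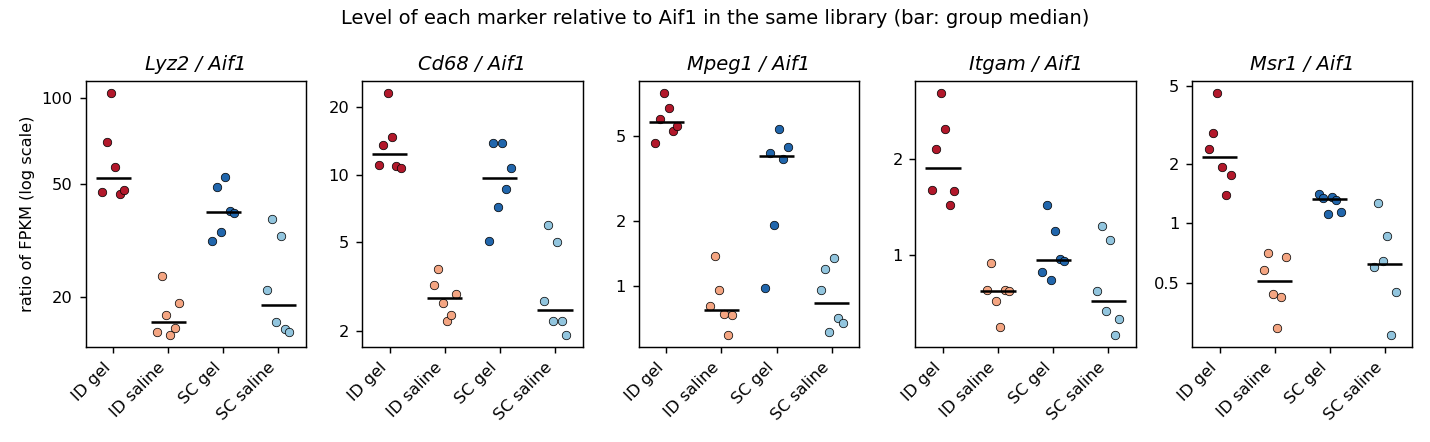
Ratio of the FPKM of 5 macrophage markers to that of Aif1 in the same library, on a log scale, with 1 point per library and a bar at the group median. For all 5 genes the ID gel libraries lie above the ID saline libraries, while SC gel and SC saline libraries overlap.

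The genes most like each member over the 24 libraries were found by the root-mean-square distance of centred log2 CPM among 14079 other tested genes. This distance reflects the 4 group means and the spread within them, and the libraries are shared by all genes. Nearest to Cd68 were Cybb (0.19 log2 units), the catalytic subunit of the phagocyte NADPH oxidase, Bin2 (0.21) and Rassf4 (0.25). Nearest to Lyz2 were Cd53 (0.19), Nfam1 (0.22) and Myo1g (0.23), and among the nearest to Msr1 were Lyz2 (0.35) and Cybb (0.41). Mpeg1 lay nearest to Slc15a3 (0.27), Itgb2 (0.33) and Clec2d2 (0.34). For Itgam the nearest were Hmox1 (0.23), which encodes the haem-degrading enzyme haem oxygenase, Cd53 (0.27) and Plcb2 (0.28). The distance of Aif1 to the other tested members was 0.65 (Itgam) to 1.32 (Mpeg1), and the distances among those 5 were 0.32 (Itgam to Lyz2) to 0.83 (Mpeg1 to Itgam). Aif1 lay nearest to the lysosomal protease Ctss (0.24), Fxyd2 (0.26) and the ferritin heavy chain Fth1 (0.28).

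Promoters are shown because 6 of the genes moved together and because PU.1, encoded by Spi1, is a known regulator of several of them in mouse and human. RefSeq promoters on the build GRCr8 were found for 5 of the 7 genes, not for Msr1 and Aif1. The 250 bases before each start follow, 5′ to 3′ on the strand of the gene, with motif matches on either strand in capitals: the PU.1 core GAGGAA, the C/EBP motif TTGCNNAA and the AP-1 motif TGANTCA.
Lyz2 (chr7:54798012-54798261, minus strand): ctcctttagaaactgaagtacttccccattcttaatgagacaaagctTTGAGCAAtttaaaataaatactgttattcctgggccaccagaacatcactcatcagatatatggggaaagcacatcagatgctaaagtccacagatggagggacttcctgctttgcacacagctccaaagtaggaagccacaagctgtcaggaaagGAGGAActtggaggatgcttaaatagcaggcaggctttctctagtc
Cd68 (chr10:54882442-54882691, minus strand): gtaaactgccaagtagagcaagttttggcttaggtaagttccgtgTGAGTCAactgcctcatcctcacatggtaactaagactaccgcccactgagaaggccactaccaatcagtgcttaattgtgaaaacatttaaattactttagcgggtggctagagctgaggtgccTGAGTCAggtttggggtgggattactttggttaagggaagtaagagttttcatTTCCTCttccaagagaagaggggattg
Mpeg1 (chr1:218876644-218876893, plus strand): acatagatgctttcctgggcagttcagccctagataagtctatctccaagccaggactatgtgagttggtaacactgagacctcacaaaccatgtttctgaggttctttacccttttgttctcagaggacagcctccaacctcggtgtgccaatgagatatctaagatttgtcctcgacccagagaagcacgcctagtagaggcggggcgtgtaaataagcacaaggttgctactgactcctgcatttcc
Itgam (chr1:192089342-192089591, plus strand): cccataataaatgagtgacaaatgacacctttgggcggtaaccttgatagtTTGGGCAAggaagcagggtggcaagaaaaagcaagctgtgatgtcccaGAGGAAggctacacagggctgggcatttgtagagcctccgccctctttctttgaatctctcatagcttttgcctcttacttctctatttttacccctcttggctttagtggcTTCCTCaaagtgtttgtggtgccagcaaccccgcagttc
Marco (chr13:34201256-34201505, minus strand): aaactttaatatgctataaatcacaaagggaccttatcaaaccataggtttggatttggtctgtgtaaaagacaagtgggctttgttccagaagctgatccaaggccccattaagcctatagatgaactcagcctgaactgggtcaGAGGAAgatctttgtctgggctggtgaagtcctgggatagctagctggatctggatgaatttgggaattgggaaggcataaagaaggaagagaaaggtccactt

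The PU.1 core was present in 4 of these 5 windows, with 1 match in Lyz2, Cd68 and Marco and 2 in Itgam, and it was in 23.3% of the 33469 rat promoter windows of the same length. The PU.1 match nearest to a start was that of Cd68, 27 to 22 bases before it on the strand opposite to the gene. Mpeg1, which had the largest rise of the members, held none of these letters, and Marco held 1 match although it was nearly without counts. The C/EBP motif was in Itgam and Lyz2 (9.22% of all windows), and the AP-1 motif, which reads the same on both strands, was in Cd68 at 2 places (6.34%). No 2 of the marked matches overlap. A match is a description of the letters and not of binding.

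Among 11 matched myeloid transcription regulators, 10 rose and 1 fell in ID gel, and 5 rose and 1 fell in SC gel. Over all tested genes 36.6% rose and 37% fell in ID skin, and 24.7% rose and 26.1% fell in SC skin. The counts of each list below stand beside these same shares. Spi1, which encodes PU.1, stood at 141 ± 25.3 CPM in ID gel, against 9.22 ± 2.98 in ID saline (SD, n = 6 each), and rose by 3.93 ± 0.28 log2 units. In SC gel it stood at 29.4 ± 15.1 CPM, against 10.3 ± 1.36 in SC saline, a rise of 1.51 ± 0.26. Irf8, a factor of monocyte development, rose by 3.11 ± 0.19 log2 units in ID skin and by 1.19 ± 0.18 in SC skin. Irf5, a factor of inflammatory gene induction, rose by 2.81 ± 0.18 in ID skin and by 1.21 ± 0.17 in SC skin. The member that fell at both sites was Nr4a1, an early response gene that patrolling monocytes require in mouse, by 2.98 ± 0.26 log2 units in ID skin and by 1.55 ± 0.25 in SC skin. Cebpb rose by 1.14 ± 0.13 log2 units in ID skin and was not called in SC skin (-0.21 ± 0.13). The list's median log2 fold change was 1.14 in ID and -0.11 in SC skin, against -0.01 and -0.00 over all tested genes.

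CD11b works only as a pair with a beta chain, and its partners were read beside it. Of 8 genes for beta2 integrins, their ligands and the proteins that activate them, 7 rose in ID gel and 6 in SC gel, and none fell. Itgb2, the beta chain that pairs with CD11b, stood at 1642 ± 389 CPM in ID gel, against 24.2 ± 7.45 in ID saline. It rose by 6.09 ± 0.48 log2 units in ID skin and by 2.83 ± 0.41 in SC skin, against 4.16 and 1.01 for Itgam, and the difference between the genes was not tested. Itgax, the alpha chain CD11c, rose by 4.19 ± 0.38 log2 units in ID skin and by 2.11 ± 0.36 in SC skin. Itgad, another alpha chain, was not called at either site and held under 1 CPM on average in every group. The list's median log2 fold change was 3.48 in ID and 0.98 in SC skin.

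Scavenger receptors other than Msr1 and Marco take up lipoproteins, haemoglobin or iron carriers. Of 9 tested genes, 6 rose and 1 fell in ID gel, and 3 rose in SC gel, with medians of 1.21 and 0.17 log2 units. Olr1, a receptor for oxidised lipoprotein, rose by 3.53 ± 0.31 log2 units in ID skin, where it reached 14.2 ± 2.59 CPM, against 1.23 ± 0.590 in ID saline. Scarb1, the receptor for high-density lipoprotein, rose by 2.19 ± 0.17 in ID and by 0.76 ± 0.16 in SC skin. Cxcl16, which also binds oxidised lipoprotein, rose by 1.48 ± 0.12 in ID and by 0.66 ± 0.12 in SC skin. Scara5, a ferritin receptor, fell by 0.76 ± 0.18 log2 units in ID skin. Stab1, a scavenger receptor of resident macrophages and of endothelium, was not called at either site (0.09 ± 0.21 and -0.38 ± 0.21).

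Cd68 belongs to the family of lysosome-associated membrane proteins. Of 3 tested genes of this family, with the lysosomal tetraspanin Cd63, all rose in ID gel and 2 in SC gel. Cd63 rose by 2.58 ± 0.23 log2 units in ID skin and by 1.08 ± 0.22 in SC skin, and Lamp2 by 1.55 ± 0.10 and by 0.50 ± 0.10. Lamp1 rose by 1.86 ± 0.15 in ID skin and was not called in SC skin (0.24 ± 0.15). Cd68 itself rose by 5.01 and 2.35 log2 units. Lamp3 and Lamp5 were near 0 in all groups and were not tested.

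Of 8 tested antimicrobial proteins of phagocytes, beside Lyz2 and Mpeg1, 4 rose in ID gel and 5 in SC gel, and none fell. Slc11a1, a metal transporter of the phagosome, stood at 437 ± 99.9 CPM in ID gel, against 3.28 ± 1.83 in ID saline, and rose by 7.06 ± 0.58 log2 units there and by 3.00 ± 0.49 in SC skin. Lcn2, a protein that binds bacterial iron carriers, rose by 4.56 ± 0.34 log2 units in ID skin and by 0.95 ± 0.32 in SC skin. Camp, the cathelicidin precursor, was low in SC gel, 0.298 ± 0.228 CPM, against 0.0196 ± 0.0307 in SC saline, and was called higher there (adjusted p = 0.00254). Camp was also called higher in ID gel, at 1.29 ± 0.388 CPM, against 0.0574 ± 0.0928 in ID saline (adjusted p = 1.64e-06). The calprotectin genes S100a8 and S100a9, abundant in neutrophils, were not called in ID skin (0.22 ± 0.39 and 0.54 ± 0.44) and rose in SC skin by 1.76 ± 0.41 and 2.32 ± 0.46 log2 units. Which cells of the skin held these transcripts was not tested. The list's medians were 0.83 in ID and 1.36 in SC skin.

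Among 8 regulators of the leukocyte actin cytoskeleton, on which Aif1 acts, 7 rose and 1 fell in ID gel, and 6 rose in SC gel, with medians of 2.98 and 0.85 log2 units. Vav1, a signalling protein of blood cells, rose by 3.72 ± 0.25 log2 units in ID and by 1.45 ± 0.24 in SC skin. Hcls1 rose by 3.53 ± 0.25 in ID and by 1.04 ± 0.24 in SC skin. Coro1a, an actin-binding protein of leukocytes, rose by 3.44 ± 0.22 in ID and by 1.15 ± 0.21 in SC skin. The gene that fell was Aif1l, the paralog of Aif1, by 0.60 ± 0.14 log2 units in ID skin, at 29.6 ± 4.98 CPM in ID gel, against 44.7 ± 4.12 in ID saline. Its counts are of the same order as those of Aif1 in saline, and how reads shared between the paralogs were counted is not given.

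**Figure D5:**
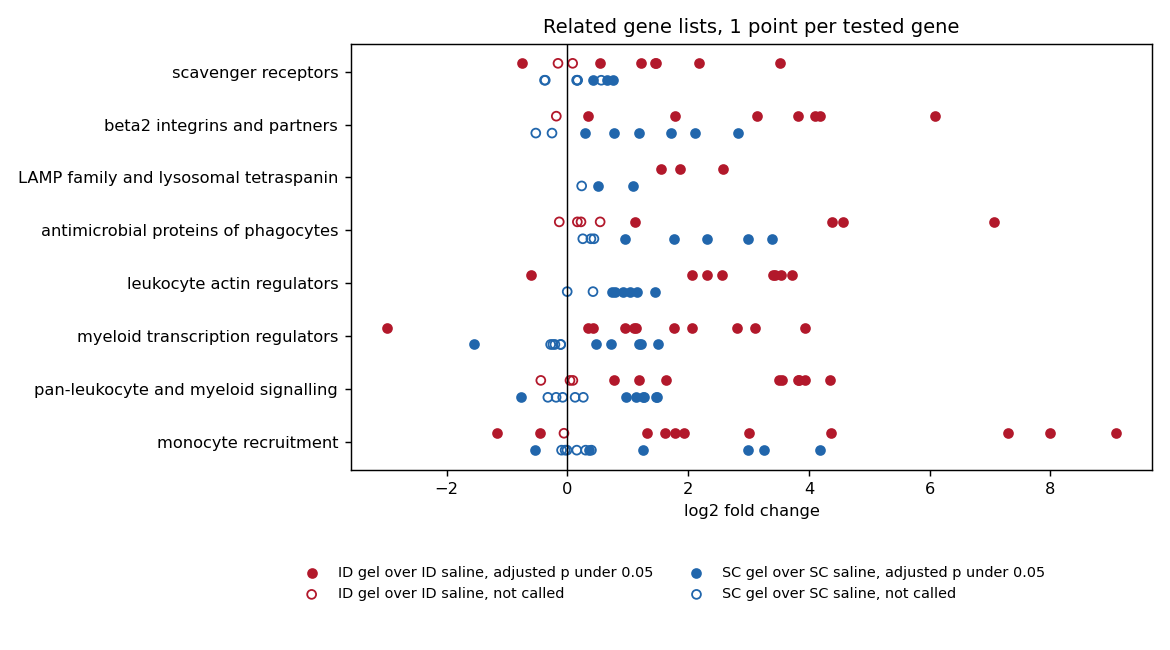
Fitted log2 fold change of each tested gene in 8 lists related to the macrophage markers, for ID gel over ID saline and SC gel over SC saline, with filled points for adjusted p under 0.05 and open points for genes not called. In the list of beta2 integrins and partners 7 of 8 genes are called higher in ID skin, and Nr4a1 is the point far to the left in the list of transcription regulators.

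Of 12 pan-leukocyte and myeloid signalling genes, 9 rose in ID gel, and 6 rose and 1 fell in SC gel, with medians of 2.57 and 0.62 log2 units. Cd53, a leukocyte tetraspanin, rose by 4.35 ± 0.30 in ID and by 1.47 ± 0.27 in SC skin, and Tyrobp, the adaptor DAP12, by 3.94 ± 0.31 and by 1.48 ± 0.28. The complement genes C1qa, C1qb and C1qc, which tissue macrophages express strongly, were not called at either site: C1qa stood at 187 ± 54.4 CPM in ID gel, against 176 ± 67.7 in ID saline, and at 167 ± 47.6 CPM in SC gel, against 176 ± 16.4 in SC saline. Csf1r, the receptor for macrophage colony-stimulating factor, rose by 1.63 ± 0.17 log2 units in ID skin and was not called in SC skin (0.13 ± 0.17). Adgre1, which encodes F4/80, a classical macrophage surface protein in mouse, rose by 0.78 ± 0.17 log2 units in ID skin and fell by 0.76 ± 0.17 in SC skin. C1q, Csf1r and Cebpb were named after their values were seen, as were Lyc2, Stab1, Itgad, Lamp3, Lamp5, S100a8 and S100a9.

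Genes of monocyte recruitment rose in 9 of 12 cases and fell in 2 in ID gel, and rose in 5 and fell in 1 in SC gel. The chemokine Ccl2 stood at 388 ± 105 CPM in ID gel, against 1.52 ± 0.669 in ID saline, a rise of 7.98 ± 0.50 log2 units, and at 36.7 ± 29.0 CPM in SC gel, against 1.99 ± 0.656 in SC saline, a rise of 4.18 ± 0.43. Ccl3 rose by 9.09 ± 0.79 in ID and by 3.25 ± 0.73 in SC skin. It stood at 39.5 ± 13.4 CPM in ID gel and 2.43 ± 2.36 CPM in SC gel. In saline Ccl3 was very low, 0.0651 ± 0.0573 CPM (ID) and 0.254 ± 0.280 CPM (SC), so the size of its rises is uncertain. The falls were Cx3cl1 (fractalkine), by 1.16 ± 0.21, and Il34, a ligand of Csf1r, by 0.46 ± 0.13 log2 units in ID skin, and Vcam1, by 0.53 ± 0.20 in SC skin. At the other site Vcam1 rose, by 1.78 ± 0.20 log2 units in ID skin, and so did Il34, by 0.36 ± 0.12 in SC skin. Cx3cl1 was not called in SC skin (0.15 ± 0.20). Medians were 1.85 in ID and 0.33 in SC skin.

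Several members are shared with other cell types, and lists for these were read beside them. Of 10 tested neutrophil genes, 3 rose and 4 fell in ID gel, where 36.6% of all tested genes rose and 37% fell. In SC gel 6 rose and 2 fell, where 24.7% of all tested genes rose and 26.1% fell. Summed levels were 103 to 277 CPM in ID gel, 65.2 to 209 in ID saline, 90.7 to 243 in SC gel and 65.7 to 83.3 in SC saline. S100a8 and S100a9 held most of these sums on average, with 66.9 and 87.5 CPM in SC gel, where the mean sum was 193 CPM. Whether neutrophils or other cells of the skin held their transcripts was not tested. The granule protease gene Ctsg was at 0 in all 24 libraries, Elane was at 0 in SC gel, and Elane and Prtn3 averaged at most 0.140 CPM in any group. Cxcr1, at 0 in both saline groups, stood at 28.5 ± 2.84 CPM in ID gel and 2.19 ± 2.17 CPM in SC gel. The genes called in ID skin were Cxcr1, Csf3r and Mmp8, which rose, and Mpo, Cxcr2, Retnlg and Padi4, which fell. In SC skin Cxcr1, Cxcr2, Mmp8, Ngp, S100a8 and S100a9 rose, and Mpo and Padi4 fell. The part of neutrophils in the rises of Itgam and Lyz2 was not tested.

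Lists for monocytes and for resident macrophages came next. Of 11 monocyte genes, 8 rose and 3 fell in ID gel, and 1 rose and 3 fell in SC gel, with summed levels of 10114 to 17278 CPM in ID gel, 1681 to 4178 in ID saline, 1531 to 3506 in SC gel and 2957 to 5273 in SC saline. Fn1, which fibroblasts also express, held most of these sums. Ccr2, the receptor for Ccl2, rose by 3.01 ± 0.24 log2 units in ID skin and was not called in SC skin (-0.10 ± 0.23), and Ly6c rose by 3.13 ± 0.20 in ID skin and was not called in SC skin (-0.15 ± 0.18). The 3 that fell at both sites were Nr4a1, Ace, by 1.92 ± 0.26 and 1.32 ± 0.26 log2 units in ID and SC skin, and F13a1. The 1 that rose in SC skin was the lipopolysaccharide co-receptor Cd14, by 0.98 ± 0.22 log2 units. Of 9 tested genes of resident dermal macrophages, 7 rose and 1 fell in ID gel, and 1 rose and 3 fell in SC gel. Their summed levels were 2267 to 3076 CPM in ID gel, 793 to 1749 in ID saline, 925 to 1580 in SC gel and 1097 to 1449 in SC saline, and none of the 9 was at 0 in any group. The ID effect minus the SC effect was called higher for 7 of 11 monocyte genes and for 7 of 9 resident macrophage genes, against 32.8% of all tested genes. Folr2, a folate receptor, rose by 2.80 ± 0.24 log2 units in ID and by 1.10 ± 0.23 in SC skin. Siglec1, the sialic acid receptor CD169, rose by 2.33 ± 0.26 log2 units in ID skin and fell by 1.22 ± 0.26 in SC skin. F13a1, the A chain of coagulation factor XIII, fell by 1.09 ± 0.26 log2 units in ID and by 0.84 ± 0.26 in SC skin. Cbr2, a carbonyl reductase, rose by 0.46 ± 0.10 in ID and fell by 0.27 ± 0.10 in SC skin. Its mean of 13.6 CPM in ID gel went with a median of only 0.932 FPKM, so its annotated length is large. Whether these counts belong to Cbr2 alone was not checked. These lists share genes with each other and with those above (F13a1, Stab1, Cd163 and Maf among them). The genes of this paragraph and of the previous one were named after their values were seen.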

How the data were processed

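Total RNA from dorsal skin was made into stranded mRNA libraries, per the labels' protocols. The deposited table gives a whole-number read count and an FPKM value per gene and library, per the file headers. The submitters' processing notes name Trimmomatic 0.36, FastQC 0.11.2, DESeq2 1.12.4 and StringTie 1.3.3b. No source used here gives the aligner, counter or strand setting. The deposited FPKM values equal count over length and library total. Of 23095 genes, 3638 had 0 counts throughout, and 1 emptied line is not reported here. No count columns were identical.

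Counts were fitted with edgeR 4.0.16 in R 4.3.3 (filterByExpr, TMM factors 0.845 to 1.224, 1 mean per group over 24 libraries, 20 residual degrees of freedom, quasi-likelihood test, Benjamini-Hochberg adjustment over 14763 genes at 0.05). SE is the size of the log2 fold change divided by √F. The script was tested on simulated data. Groups came from the sample titles. Alternatives were DESeq2 1.42.0, limma 3.58.1 on log2 FPKM (pseudocounts 1 and 0.1, at least 1 FPKM in 6 libraries, or no filter), RLE factors, 2 other count filters, robust empirical Bayes, fewer libraries, the other saline group, muscle genes left out and a replicate block. The members, 8 related lists (76 of 80 entries matched), 13 cell type lists (130 of 142 matched) and rules were chosen with earlier results of these data known. Per list, up to 2 rises and 2 falls per site, by size among called genes, were named, and per member up to 3 nearest genes. Promoters are from RefSeq (GRCr8).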

Additional observations from a re-analysis of the deposited data

Results flagged for a closer look

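SC saline library 2 stood apart from the other 5 libraries of its group for Cd68, at 60.4 CPM with the next highest at 43.5 CPM, and for Lyz2, at 575 CPM with the next highest at 454 CPM. Its gap made up 0.658 of the group's range for Cd68 and 0.645 for Lyz2, above Dixon's 95% critical value for 6 samples. By FPKM, without TMM factors, the shares were 0.377 and 0.467, under that value. This library has the lowest TMM factor, 0.845. Over 24 tests, 6 genes in 4 groups, chance alone flags about 1 in 20.

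The gel effect differed between the sites, by the test of the difference itself (ID minus SC, log2 units), for Msr1 (3.43 ± 0.46), Itgam (3.15 ± 0.43), Lyz2 (3.05 ± 0.42), Mpeg1 (2.96 ± 0.53), Cd68 (2.66 ± 0.50) and Aif1 (2.31 ± 0.36).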

How the results depend on the processing

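All 6 tested members stayed called in ID skin, for the difference between sites and for ID gel against SC gel, and none between the saline groups, under every alternative that gave a value, including each of 24 libraries left out in turn. In SC skin 5 or 6 members were called. Over all alternatives 228 of 228 single values in ID skin kept their direction and side of the threshold, 224 of 228 in SC skin, 222 of 222 for the difference, 222 of 222 between gels and 210 of 210 between salines. The 4 others were Aif1 in SC skin, past the threshold with limma on FPKM (0.60, 0.64 and 0.60 log2 units) and without SC gel replicate 3 (0.60). The 475 genes called between the saline groups became 1021 with DESeq2 and 316 without a filter, and 132 to 888 with a library left out (132 without SC saline replicate 2, 888 without SC saline replicate 5), and the cause was not tested. With a replicate block, 10918, 7542, 8250, 9967 and 529 genes were called in ID, SC, the difference, between gels and between salines, and 6, 5, 6, 6 and 0 members. Same-numbered libraries correlated at -0.17 to 0.13 between ID gel and ID saline (1 of 6 pairs over 0.1), -0.17 to 0.28 between SC gel and SC saline (1 of 6), -0.13 to 0.42 between ID gel and SC gel (4 of 6) and -0.12 to 0.38 between ID saline and SC saline (4 of 6). Since not every pair was over 0.1, the numbers were not treated as pairs. Differently numbered libraries were not compared, so these values do not show that the libraries are unpaired. The other saline group and fewer gel replicates give no value for some comparisons. Marco, removed by the filter, was tested where no filter was used (edgeR and limma) and was not called in any of the 5 comparisons at this depth.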

Other observations

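Lists for other cell types of skin are given here as summed CPM, with their counts of called genes. Over all tested genes 36.6% rose and 37% fell in ID skin, and 24.7% rose and 26.1% fell in SC skin. T cell genes summed to 24.2 to 32.2 CPM in ID gel, against 10.9 to 12.3 in ID saline, and to 13.7 to 24.5 CPM in SC gel, against 9.55 to 13.2 in SC saline, and 4 of 7 tested rose in ID skin and 1 in SC skin. NK cell genes summed to at most 18.1 CPM in any library, with 2 of 5 tested higher in ID skin and 0 in SC skin, and B cell genes to at most 9.69 CPM, with 1 of 2 tested higher at each site. Dendritic and Langerhans cell genes rose in 7 and fell in 2 of 12 cases in ID skin, and rose in 3 and fell in 1 in SC skin.

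Mast cell genes fell in 5 and rose in 1 of 7 tested cases in ID skin, and rose in 4 in SC skin, with sums of 32.9 to 74.4 CPM in ID gel, against 94.5 to 138 in ID saline, and of 170 to 299 CPM in SC gel, against 104 to 133 in SC saline. Keratinocyte genes fell in 6 of 6 cases in ID skin, and rose in 5 and fell in 1 in SC skin, with sums of 1523 to 5570 CPM in ID gel, against 5764 to 10973 in ID saline, and of 13789 to 21050 CPM in SC gel, against 5534 to 7488 in SC saline. Fibroblast genes rose in 3 and fell in 1 of 8 in ID skin, and rose in 1 and fell in 3 in SC skin. Endothelial genes rose in 2 and fell in 5 of 7 in ID skin and fell in 1 in SC skin, and adipocyte genes rose in 1 and fell in 6 of 8 in ID skin and rose in 4 and fell in 1 in SC skin. None of these sums was related to the macrophage markers by a test.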
